A study of Mus musculus with 15 samples.

Results

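The genes described here are 43 genes of DNA replication and S phase, measured in the lungs of mice given rod-like carbon nanotubes (rCNT), stiff needle-shaped carbon fibres. They were listed by function, with no threshold on their values, but after earlier results of these data were known. The list holds the factors that license origins and load the helicase, the helicase itself, the polymerases, the sliding clamp and its loaders, lagging strand enzymes, the makers of deoxynucleotides, regulators of S-phase entry, chromatin replication factors and checkpoint genes. All 43 had a probe on the array. Of these, 41 passed the filter on dim probes, out of 25251 genes and unnamed transcripts tested. Brca1, a repair factor, and Ccne2, an E-type cyclin, were not well above background in any of the 15 samples and are not described further. Just inside the filter, the probe of Orc1 was well above background in 3 of 4 aspirated rCNT samples, 1 of 4 PBS samples and 0 samples of the other groups. The probe of Clspn was well above background in 4 of 4 aspirated rCNT samples, 0 PBS samples, 1 of 3 inhaled rCNT samples and 0 untreated samples. Both passed only through the aspirated rCNT samples, so their changes after aspiration are given as descriptions and the main counts are repeated without them. The other 39 were well above background in every sample, except Dscc1 in 2 of the untreated samples.

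All samples were lungs of female C57BL/6 mice of 7 to 8 weeks at the time of housing, with no genetic change named, taken 24 h after the last exposure of a 4-day protocol. In the aspiration arm, 4 samples received 10 µg of rCNT in 50 µl of phosphate-buffered saline (PBS) and 4 received 50 µl of PBS alone. In the inhalation arm, 3 samples came from mice that breathed an rCNT aerosol of 6.2 to 8.2 mg per cubic metre for 4 h per day, and 4 came from untreated mice. The 2 arms differ in dose, in the way of delivery, in the kind of control and in the slide, so these cannot be told apart wherever the arms are compared. How many mice went into a sample is not given in the labels, so p-values rest on a spread among samples that could be technical in part or whole. The names of the deposited files of the inhalation arm, untreated samples included, speak of pools and those of the aspiration arm do not, so the spread may not mean the same in both arms. Untreated replicate 1 carries a title that names a PBS aspiration, while its source name and exposure name an untreated mouse. It was kept as untreated, and without it the number of these genes that rose after inhalation was 22 instead of 21 and the number that fell stayed at 5.

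RNA was labelled with Cy3 or Cy5 and read on 14 two-colour Agilent arrays, of which 1 held both inhaled rCNT replicate 2 and untreated replicate 4. The aspiration samples lay on slide 1, untreated replicates 1 to 3 and inhaled replicate 1 on slide 2, and the other 3 samples on slide 3. Between 54.6% and 64.7% of spots were well above background, no spot was saturated, and the number of arrays limits the precision. Levels are log2 normalised spot intensities, which rank samples for 1 gene but not genes against each other. A gene was said to rise or fall when its adjusted p in limma's linear model with groups and dye (Benjamini-Hochberg over all 25251 features) was below 0.05.

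Before DNA is copied, the origin recognition complex, Cdc6 and Cdt1 load a ring of Mcm2 to Mcm7 onto each origin, and Cdc45 and the GINS complex then turn this ring into the active helicase. Polymerase alpha with primase starts each strand, polymerases delta and epsilon extend it while held by the Pcna clamp, and ribonucleotide reductase and thymidine enzymes supply the building blocks. Transcription of many of these genes is timed to late G1 and S phase by E2F factors, and in the adult lung most cells are quiescent. In a whole lung, more RNA per cell and more cells that carry the RNA cannot be told apart.

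E2F factors bind short GC-rich elements near the start sites of such genes, so promoter sequences from RefSeq (GRCm38.p6) were searched on both strands of the 250 bases before the start for the letters TTTCCCGC, TTTCGCGC, TTTGCCGC and TTTGGCGC. Of the 41 measured genes, 35 had at least 1 window in the table, and 9 of these (25.7%) held at least 1 match, against 583 of 27025 genes (2.16%). The 9 genes were Cdc6, Gins3, Mcm5, Mcm6, Mcm7, Orc1, Pola1, Rfc3 and Uhrf1. The stretches below are shown because they belong to genes with different patterns over the exposures described further on: Mcm5 and Mcm6 rose after aspiration and were not called after inhalation, Cdc6 rose after both, Rfc3 rose after one and fell after the other, and Gins3 rose after neither. They are written 5′ to 3′ on the strand of the gene, and the capitals mark the searched letters or their reverse complement, which overlap each other in Mcm5 and Mcm6. The Mcm5 stretch is chr8:75109316-75109407 (+), that of Mcm6 chr1:128359706-128359855 (-), that of Cdc6 chr11:98907973-98908060 (+), that of Rfc3 chr5:151651209-151651258 (-) and that of Gins3 chr8:95633478-95633558 (+).
Mcm5: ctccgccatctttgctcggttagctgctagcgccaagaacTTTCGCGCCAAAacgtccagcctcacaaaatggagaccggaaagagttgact
Mcm6: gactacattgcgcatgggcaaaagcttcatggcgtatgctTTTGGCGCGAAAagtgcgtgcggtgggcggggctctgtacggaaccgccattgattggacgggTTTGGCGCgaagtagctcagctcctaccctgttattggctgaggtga
Cdc6: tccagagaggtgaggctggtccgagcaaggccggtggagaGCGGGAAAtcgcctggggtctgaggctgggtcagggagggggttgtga
Rfc3: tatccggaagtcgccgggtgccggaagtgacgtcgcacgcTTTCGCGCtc
Gins3: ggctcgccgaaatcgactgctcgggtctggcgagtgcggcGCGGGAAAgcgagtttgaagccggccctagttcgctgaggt
A match describes letters, not a bound site. The box CCAAT stood in at least 1 window of 21 of the 35 genes (60.0%, against 37.5% of all genes), the GC box GGGCGG in 24 (68.6%, against 35.4%) and the letters TTTGAA, the core of an element of late cell cycle genes, in 6 (17.1%, against 18.3%). The 9 genes with the E2F letters had a median change of 0.87 after aspiration and 0.12 after inhalation on the log2 scale, and the 26 without them 1.17 and 0.26.

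The first comparison asks which of these genes differ between lungs that received aspirated rCNT and lungs that received PBS alone. Genes of every step of replication rose after aspiration of rCNT. Of the 41 genes, 39 rose, 1 fell and 1 was not called, beside 20.6% of all features tested that rose and 26.5% that fell. Without Orc1 and Clspn, 37 of 39 rose. At least 2-fold rises were seen in 24 of them (2.87% of all features). The median change was 1.13 on the log2 scale, against -0.04 over all features. In 37 genes every rCNT sample lay above every PBS sample, which held for 19.2% of all features. Without Orc1 and Clspn that was 35 of 39. Gins3 had every rCNT sample below, and Gins4, Tyms and E2f2 overlapped. Relative to each gene's mean over the 15 samples, the median of the 41 genes lay between 0.64 and 0.77 in the rCNT samples and between -0.44 and -0.27 in the PBS samples.

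**Figure D1:**
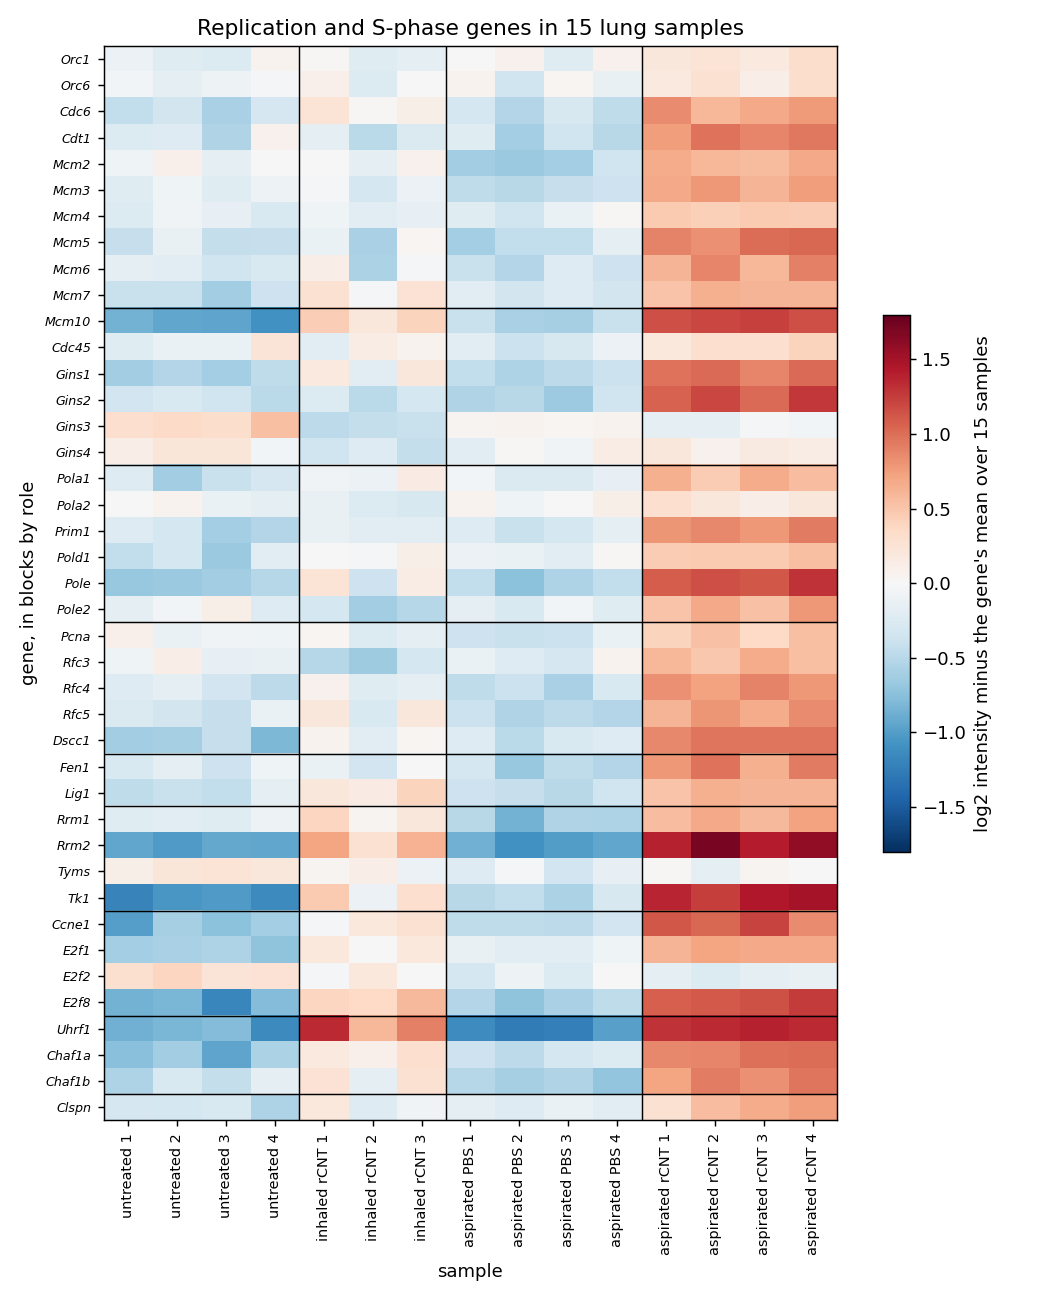
Log2 level of the 41 genes (rows, in blocks by role) in each of the 15 samples (columns), shown as the difference from the gene's mean over the samples, with red for higher and blue for lower. The 4 aspirated rCNT samples are higher for nearly all genes, and the 3 inhaled rCNT samples are higher than the untreated samples for some genes only, such as Mcm10, Rrm2, Tk1, E2f8 and Uhrf1.

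All 10 licensing factors were counted among the 39 genes that rose after aspiration, Orc1 as a description only. The median change, with Orc1 included, was 1.13. Mcm5, a subunit of the helicase ring, stood at 10.67, 10.59, 10.77 and 10.80 in the rCNT samples and at 9.15, 9.33, 9.32 and 9.60 in the PBS samples. No rCNT sample came near a PBS sample, and the change was 1.36 ± 0.12 (SE, n = 4 and 4), or 2.56-fold (limma adjusted p = 2.25e-07). Mcm2, another subunit, stood at 10.18, 10.11, 10.08 and 10.19 against 8.89, 8.84, 8.90 and 9.15, again with a wide gap, and rose by 1.20 ± 0.08 (limma adjusted p = 6.72e-09). The 6 ring subunits rose by 0.62 (Mcm4) to 1.36 (Mcm5). Cdt1, which brings the ring to the origin, stood at 11.37, 11.59, 11.50 and 11.57 against 10.40, 10.01, 10.25 and 10.12, a rise of 1.31 ± 0.08. Cdc6, the ATPase that recruits Cdt1 and the ring, stood at 8.09, 7.83, 7.92 and 8.01 against 6.93, 6.71, 6.95 and 6.78, a rise of 1.12 ± 0.08. The groups did not overlap for either loader. The origin subunits changed least, Orc6 by 0.32 ± 0.06 and the dim Orc1 by 0.26 ± 0.08. The Orc1 change was 0.24 without rCNT replicate 4 and 0.17 without PBS replicate 3. Because Orc1 passed the filter only through the rCNT samples, no test is given for its change.

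The 6 factors that activate the helicase went different ways. Mcm10, which is needed for the loaded ring to start unwinding, stood at 9.44, 9.49, 9.51 and 9.45 after rCNT and at 7.89, 7.70, 7.69 and 7.88 after PBS, a tight pair of groups that differed by 1.68 ± 0.07 (3.21-fold, limma adjusted p = 5.56e-11). Gins2 stood at 8.90, 9.05, 8.86 and 9.12 against 7.30, 7.35, 7.19 and 7.49 and rose by 1.65 ± 0.08 (3.14-fold). Gins1 rose by 1.44 ± 0.07 and Cdc45 by 0.54 ± 0.10. The other 2 subunits of the same 4-part GINS complex did not follow. Gins4 stood at 10.50, 10.37, 10.46 and 10.43 against 10.11, 10.32, 10.23 and 10.42, overlapping groups with a small rise of 0.17 ± 0.06 (limma adjusted p = 0.0248), a call lost without any of rCNT replicates 2 and 4 and PBS replicates 1 and 2 (changes of 0.14 to 0.17). Gins3 stood at 13.19, 13.20, 13.35 and 13.32 against 13.42, 13.44, 13.40 and 13.44, a fall by 0.16 ± 0.06 that only just passed (limma adjusted p = 0.04999) and was lost in most alternatives, among them leaving out rCNT replicate 1, 2 or 4, any PBS replicate, any inhaled rCNT replicate, or untreated replicate 2 or 3 (changes of -0.18 to -0.13).

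All 6 polymerase and primase genes rose after aspiration, with a median of 0.78. Pole, the catalytic subunit of the leading strand polymerase epsilon, stood at 10.12, 10.20, 10.16 and 10.34 against 8.60, 8.30, 8.49 and 8.59 and rose by 1.71 ± 0.09 (3.27-fold, limma adjusted p = 6.9e-10). Its second subunit Pole2 rose by 0.81 ± 0.09. Prim1, the catalytic subunit of primase, rose by 1.13 ± 0.08, Pola1 of polymerase alpha by 0.76 ± 0.09 and Pold1 of polymerase delta by 0.58 ± 0.08. Pola2, the accessory subunit of polymerase alpha, rose by only 0.18 ± 0.07 (limma adjusted p = 0.0357), a call lost without any of rCNT replicates 1, 2 and 4 and PBS replicates 2 and 3 (changes of 0.15 to 0.18).

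The clamp and its loaders rose together, with changes from 0.72 to 1.25. Pcna, the sliding clamp, stood at 13.28, 13.40, 13.23 and 13.41 against 12.50, 12.47, 12.49 and 12.75 and rose by 0.78 ± 0.08 (limma adjusted p = 7.01e-07). Rfc4, Rfc5 and Rfc3 of the clamp loader rose by 1.23 ± 0.08, 1.21 ± 0.07 and 0.72 ± 0.09. Dscc1, part of the loader variant used for sister chromatid cohesion, rose by 1.25 ± 0.09. The lagging strand enzymes Fen1, the flap nuclease, and Lig1, the ligase that seals nicks, rose by 1.32 ± 0.07 and 1.01 ± 0.07.

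The largest rises were in deoxynucleotide supply and in chromatin replication. Rrm2, the small subunit of ribonucleotide reductase that is made in S phase, stood at 11.68, 12.00, 11.71 and 11.90 in the rCNT samples and at 9.43, 9.20, 9.29 and 9.36 in the PBS samples. All rCNT samples were far above all PBS samples, with a change of 2.50 ± 0.07, or 5.67-fold (limma adjusted p = 1e-12). The large subunit Rrm1 rose by 1.25 ± 0.07. Tk1, the thymidine kinase of dividing cells, stood at 11.06, 10.93, 11.13 and 11.19 against 9.19, 9.24, 9.12 and 9.40, without overlap, and rose by 1.84 ± 0.10. Tyms, thymidylate synthase, stood at 7.24, 7.07, 7.28 and 7.21 against 6.99, 7.21, 6.89 and 7.07, overlapping groups with a small rise of 0.16 ± 0.06 (limma adjusted p = 0.0408). That call was lost when any of rCNT replicates 1, 3 and 4 or PBS replicates 1, 3 and 4 was left out (changes of 0.13 to 0.17).

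Uhrf1, which carries DNA methylation over to the new strand, stood at 10.89, 10.93, 10.97 and 10.93 in the rCNT samples and at 8.46, 8.33, 8.35 and 8.61 in the PBS samples, a gap with no overlap and a change of 2.49 ± 0.12 (5.62-fold, limma adjusted p = 2.38e-10). A second, dimmer Uhrf1 probe, well above background in 0 PBS samples, changed by 0.50. The histone chaperone subunits Chaf1b and Chaf1a rose by 1.45 ± 0.09 and 1.29 ± 0.08. Of the regulators of S-phase entry, E2f8, a repressor of E2F targets, rose by 1.72 ± 0.08, Ccne1, cyclin E1, by 1.49 ± 0.09 (0.77 with its second probe) and the activator E2f1 by 0.82 ± 0.06. E2f2, another activator, stood at 11.81, 11.74, 11.82 and 11.85 against 11.68, 11.90, 11.74 and 12.00 and changed by -0.02 ± 0.06 (limma adjusted p = 0.81), with overlapping groups. Clspn, a mediator of the replication checkpoint that was dim in all PBS samples, was at least 1.67-fold higher, from measured means of 7.14 and 6.40. Because Clspn passed the filter only through the rCNT samples, no test is given for that difference.

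**Figure D2:**
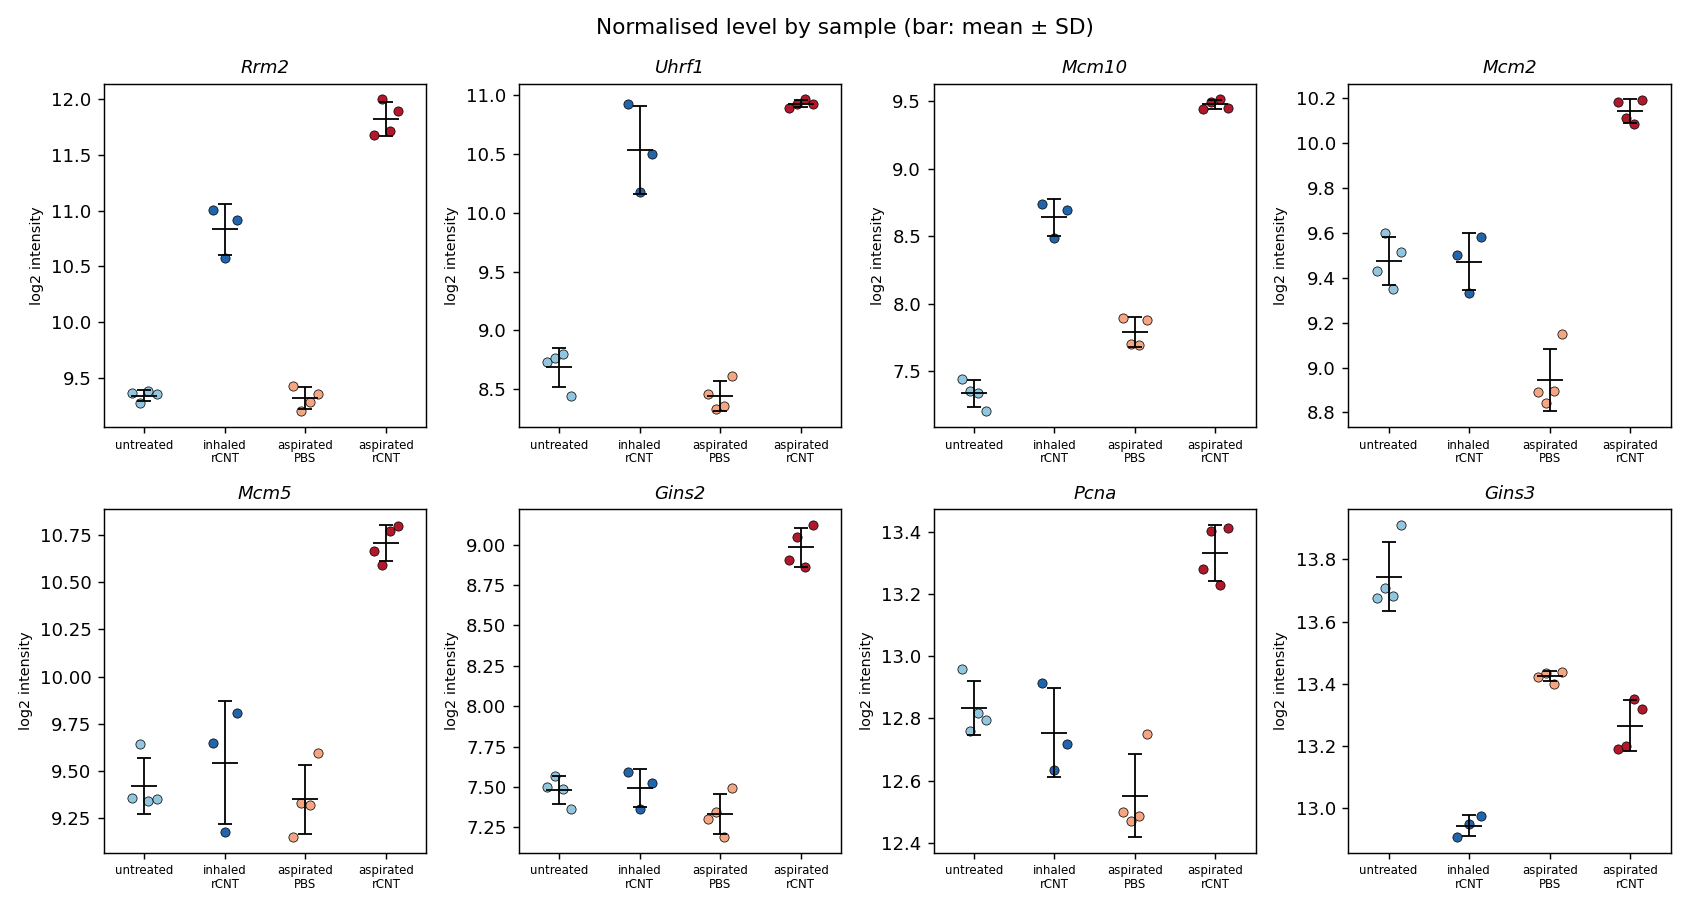
Log2 normalised level (vertical axis, own scale per panel, not starting at 0) of 8 genes in every sample of the 4 groups, with the group mean and SD. Rrm2, Uhrf1 and Mcm10 are higher after rCNT by both routes. Mcm2, Mcm5, Gins2 and Pcna stand apart only in the aspirated rCNT samples from their own controls, and Gins3 is lowest in the inhaled rCNT samples.

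The second comparison asks the same of lungs that inhaled rCNT and lungs of untreated mice. After inhalation, all 3 chromatin replication genes, 3 of 4 genes of deoxynucleotide supply (not Tyms) and 3 of 4 measured S-phase regulators rose, E2f2 fell, and 5 of the 6 helicase ring subunits were not called. Of the 41 genes, 21 rose, 5 fell and 15 were not called, beside 28.4% of all features that rose and 32.5% that fell. Without Orc1 and Clspn, 20 of 39 rose. At least 2-fold rises were seen in 5 genes (Mcm10, Rrm2, Tk1, E2f8 and Uhrf1), beside 4.16% of all features. The median change was 0.23, against -0.02 over all features. Exposed samples lay wholly above the untreated ones in 20 genes (25.7% of all features), wholly below in 5 (29.1%) and overlapped them in 16. Centring each array on its median instead of quantile normalisation moved the median of all features from -0.02 to -0.15 and that of these genes from 0.23 to -0.01. With that scaling 13 of them rose and 12 fell, and of all features 3838 rose and 10135 fell in place of 7167 and 8197, so the small inhalation changes depend on the scaling.

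Uhrf1 stood at 10.93, 10.18 and 10.50 in the inhaled rCNT samples and at 8.73, 8.77, 8.80 and 8.44 in the untreated ones, far apart although the exposed samples spread widely. Its change was 1.85 ± 0.13 (SE, n = 3 and 4), or 3.6-fold (limma adjusted p = 1.49e-08), and 0.22 with the dimmer second probe. That second probe was well above background in 0 inhaled rCNT and 0 untreated samples. Rrm2 stood at 11.00, 10.57 and 10.92 against 9.36, 9.27, 9.38 and 9.36, without overlap, and rose by 1.46 ± 0.08 (2.75-fold, limma adjusted p = 7.41e-10). Tk1 stood at 10.15, 9.58 and 9.98 against 8.48, 8.64, 8.66 and 8.54 and rose by 1.32 ± 0.11. Inhaled replicate 2 was the lowest of the 3 for all of these genes, and it was the only one labelled with Cy5. E2f8 stood at 8.12, 8.09 and 8.32 against 6.89, 6.91, 6.56 and 6.95 and rose by 1.33 ± 0.09. Mcm10 stood at 8.74, 8.49 and 8.69 against 7.44, 7.36, 7.34 and 7.21 and rose by 1.30 ± 0.08. Neither overlapped the untreated samples.

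Smaller rises after inhalation were those of Chaf1a (0.90 ± 0.09), Ccne1 (0.90 ± 0.09, and 0.26 with its second probe) and E2f1 (0.74 ± 0.07). The second Ccne1 probe was well above background in 2 of 3 inhaled rCNT and 1 of 4 untreated samples. Lig1 and Gins1 both rose by 0.61 ± 0.08, Pole by 0.60 ± 0.10, Dscc1 by 0.57 ± 0.09 and Cdc6 by 0.52 ± 0.08. Chaf1b, Pold1, Rrm1 and Pola1 rose by 0.46, 0.43, 0.37 and 0.37, and with median centring these calls were lost (0.18, 0.12, 0.05 and 0.21). Rfc5 rose by 0.29 ± 0.07 and Prim1 by 0.23 ± 0.08, and with median centring these changes turned to -0.01 and -0.04 with no call. The Prim1 call was also lost without any of inhaled replicates 1 and 2 and untreated replicates 3 and 4 (changes of 0.18 to 0.22). Clspn, with 1 of 3 inhaled samples well above background, was at least 1.15-fold higher (limma adjusted p = 0.0222), a call lost with median centring, and without inhaled replicate 1 (adjusted p = 0.127) or untreated replicate 4 (adjusted p = 0.0903).

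Of the 6 subunits of the helicase ring, 1 rose after inhalation. Mcm7 stood at 11.89, 11.58 and 11.87 against 11.21, 11.21, 10.99 and 11.24, without overlap, and rose by 0.59 ± 0.07 (limma adjusted p = 1.87e-06; 0.23 and not called with median centring). Mcm2 stood at 9.50, 9.33 and 9.58 against 9.43, 9.60, 9.35 and 9.52, the same range in both groups, with a change of -0.00 ± 0.09 (limma adjusted p = 0.971). Mcm3, Mcm6 and Mcm4 changed by -0.01 ± 0.07, 0.04 ± 0.10 and 0.05 ± 0.08. Mcm5 stood at 9.65, 9.18 and 9.81 against 9.36, 9.64, 9.34 and 9.35, with inhaled replicate 2 below all untreated samples and inhaled replicates 1 and 3 above them. Its change of 0.12 ± 0.13 was not called (limma adjusted p = 0.443), and without inhaled replicate 2 it was 0.37 (adjusted p = 0.0104). Mcm6 had the same order, with 12.15 in inhaled replicate 2 and 12.84 and 12.69 in the others, against 12.37 to 12.56 in untreated samples.

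Other genes not called after inhalation were Gins2 (0.01 ± 0.09), Cdc45 (0.05 ± 0.11), Fen1 (0.03 ± 0.08), Orc6 (0.00 ± 0.07), Cdt1 (-0.11 ± 0.09), Pcna (-0.09 ± 0.08) and Tyms (-0.14 ± 0.07). The Orc1 probe was not well above background in either group. Pola2 (-0.17 ± 0.07, limma adjusted p = 0.0599) and Rfc4 (0.21 ± 0.09, limma adjusted p = 0.0576) lay close to the threshold. Pola2 was called lower without inhaled replicate 1 or untreated replicate 4 (both -0.21), Tyms without inhaled replicate 1 (-0.18), and Rfc4 was called higher without inhaled replicate 2 (0.32), untreated replicate 1 (0.25) or untreated replicate 2 (0.24). Pola2 was also called lower with the processed signal (-0.47), normexp offset 16 (-0.24), the deposited series table, array weights and the replicate block (each -0.21). Tyms was also called lower with array weights (-0.17). Rfc4 was also called higher with the processed signal (0.24), cyclic loess (0.29), the mean of all probes (0.46) and slide as a block (0.31). A second Rfc4 probe rose by 0.71. With median centring, Orc6, Cdt1, Mcm3, Mcm4, Mcm6, Pcna and Fen1 were called lower, by 0.31 to 0.51.

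The 5 genes that fell after inhalation were Gins3, Gins4, Pole2, Rfc3 and E2f2. Gins3 stood at 12.90, 12.95 and 12.97 against 13.67, 13.71, 13.68 and 13.91, well below every untreated sample, and fell by 0.81 ± 0.07 (0.572-fold, limma adjusted p = 8.68e-08). Gins4 stood at 9.94, 10.07 and 9.87 against 10.41, 10.51, 10.51 and 10.24 and fell by 0.44 ± 0.06. Pole2 stood at 7.21, 6.91 and 7.02 against 7.36, 7.49, 7.64 and 7.29 and fell by 0.41 ± 0.10, and Rfc3 fell by 0.42 ± 0.10. None of these 4 overlapped the untreated samples. E2f2 stood at 11.97, 12.18 and 12.00 against 12.28, 12.37, 12.22 and 12.25 and fell by 0.21 ± 0.07, a call lost without inhaled replicate 1 (adjusted p = 0.0525). With cyclic loess in place of quantile normalisation, the E2f2 change was -0.10 and not called (limma adjusted p = 0.223). The position of E2f2 against PBS samples was the opposite, as given further on.

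Within slide 2 (1 inhaled rCNT sample and 3 untreated) the median change was 0.35, against -0.03 over all features, and 33 of 41 genes lay above 0. Within slide 3 (2 inhaled rCNT samples and 1 untreated) it was 0.22, against -0.02 over all features, with 25 of 41 above 0. The median was above 0 on both slides, but each rests on 1 sample on one side. These are differences of mean levels with no term for dye, which was not balanced within either slide. Without inhaled replicate 2 the median was 0.37.

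**Figure D3:**
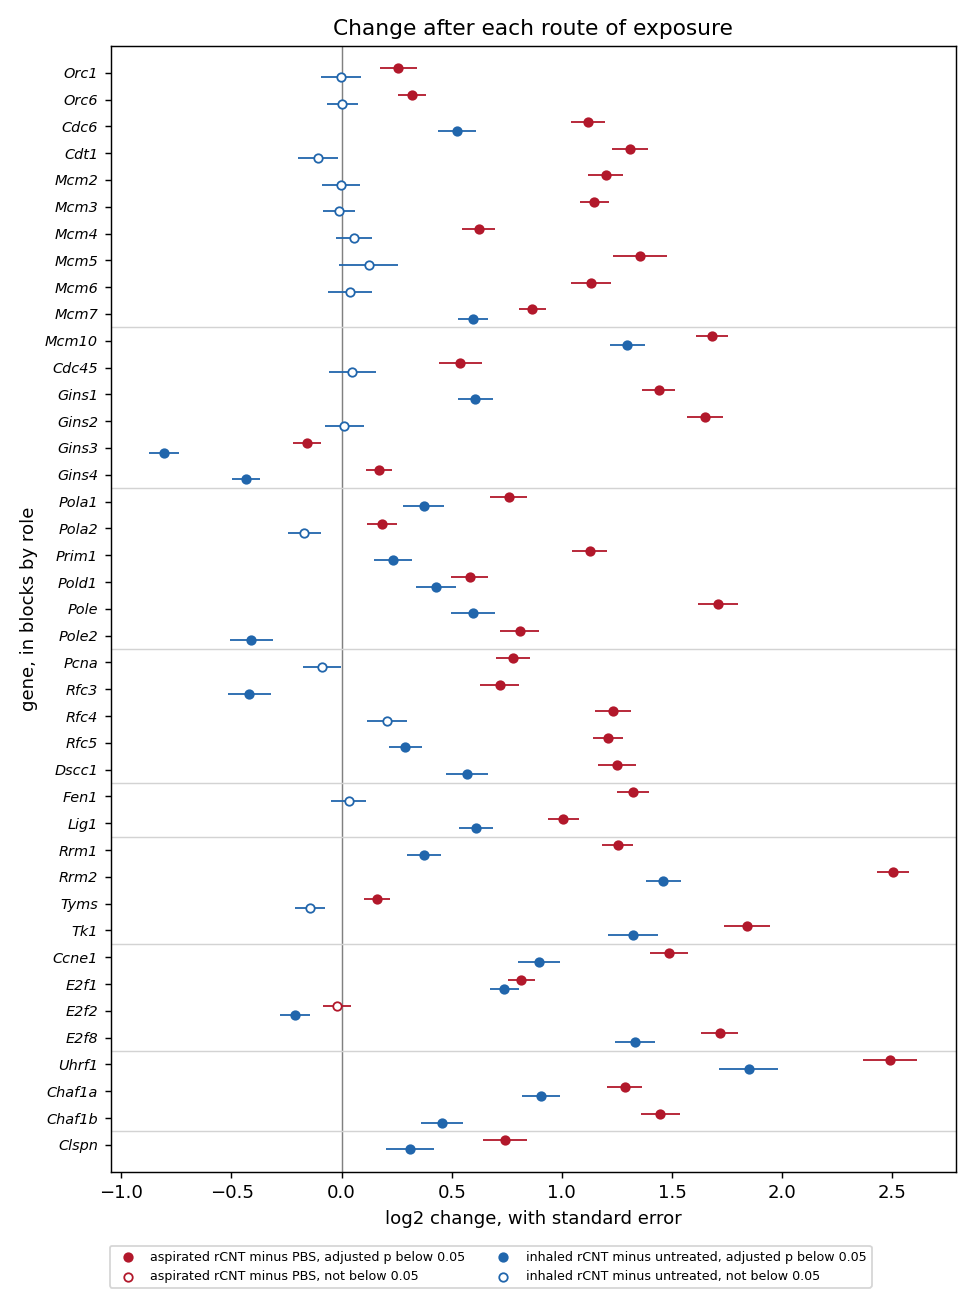
Log2 change with its standard error for each of the 41 genes (rows, in blocks by role) after aspiration (red) and inhalation (blue), with filled points where the adjusted p was below 0.05. Red points lie to the right of blue points for every gene, and the blue points of Mcm2 to Mcm6 sit between -0.01 and 0.12.

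The third comparison asks whether the change after aspiration differed from that after inhalation, as an interaction in the same model. The difference was called for 37 of the 41 genes, all of them with the larger value after aspiration, beside 28.4% of all features with a larger value after aspiration and 28.5% with a smaller one. Without Orc1 and Clspn it was called for 36 of 39. The median difference was 0.64. It was largest for Gins2 (1.64 ± 0.12, limma adjusted p = 2.86e-08), Cdt1 (1.42 ± 0.12), Fen1 (1.29 ± 0.11), Mcm5 (1.23 ± 0.18), Pole2 (1.22 ± 0.13) and Mcm2 (1.20 ± 0.12). For these genes the change after inhalation was between -0.41 and 0.12. The 4 genes without a call were Orc1 (0.26 ± 0.12), E2f2 (0.19 ± 0.09), Pold1 (0.15 ± 0.12) and E2f1 (0.08 ± 0.09, limma adjusted p = 0.495).

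The 21 genes that rose by both routes had differences from 0.08 (E2f1) to 1.11 (Pole). Those with at least 2-fold rises by both had differences of 1.04 ± 0.11 for Rrm2, 0.64 ± 0.18 for Uhrf1, 0.52 ± 0.15 for Tk1, and 0.39 for both E2f8 and Mcm10. With Agilent's processed signal, the calls of E2f8 (0.11, limma adjusted p = 0.639) and Mcm10 (0.29, limma adjusted p = 0.121) were lost. That of E2f8 was also lost with a normexp offset of 16 (0.34). Leaving out the 2 samples of the shared array lost the calls of E2f8 (0.34) and Tk1 (0.29). Without inhaled replicate 2, the difference was 0.42 for Uhrf1 and 0.30 for Tk1, and that of Mcm7 (0.20, limma adjusted p = 0.0871) lost its call. The difference of Clspn, given as a description only, was then 0.34. Over the calls, 21 genes rose by both routes, 15 rose after aspiration and were not called after inhalation, Gins4, Pole2 and Rfc3 rose after aspiration and fell after inhalation, Gins3 fell in both, and E2f2 was not called after aspiration and fell after inhalation. The 21 include Clspn and the 15 include Orc1, whose changes after aspiration are descriptions only. By role, the medians after aspiration and inhalation were 1.13 and 0.02 for licensing, 0.99 and 0.03 for helicase activation, 0.78 and 0.30 for polymerases and primase, and 1.21 and 0.21 for the clamp and its loaders. They were 1.55 and 0.85 for deoxynucleotide supply, 1.15 and 0.82 for S-phase entry and 1.45 and 0.90 for chromatin replication. Across the 41 genes the changes after the 2 routes had a Pearson r of 0.777 and a Spearman rho of 0.692, given as a description because genes are not independent and both changes come from 1 fit with a common dye term.

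**Figure D4:**
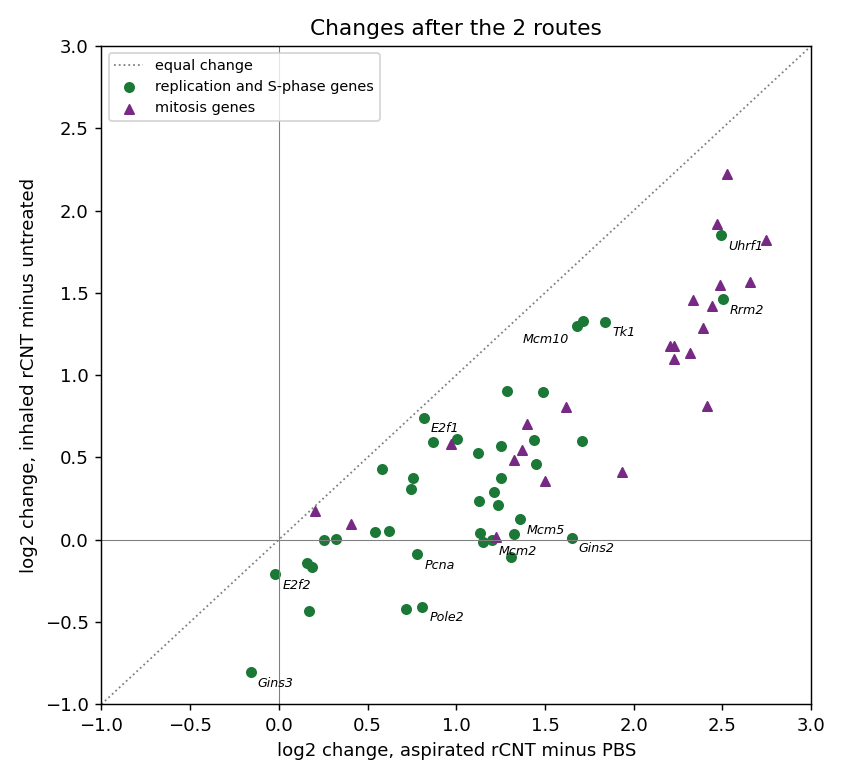
Log2 change after aspiration (horizontal) against the change after inhalation (vertical) for the 41 replication and S-phase genes (green circles) and 23 genes of mitosis (purple triangles), with a dotted line where both are equal. All circles lie below the line, and Gins2, Mcm2 and Mcm5 lie near 0 on the vertical axis while Rrm2 and Uhrf1 lie above 1 on both.

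The control groups were also compared, because the difference between routes contains any difference between PBS and untreated lungs. Of the 41 genes, 10 were higher in PBS samples and 11 lower, beside 26.3% and 33.1% of all features, and the median was -0.04. Neither count was a larger share than that of all features. Mcm2 and Mcm3 were lower in PBS samples than in untreated ones, by changes of -0.53 and -0.28, as were Rrm1, Pcna and Fen1, by -0.43, -0.28 and -0.27. Tk1, E2f1, Mcm10 and Chaf1a were higher in PBS samples, by 0.66, 0.47, 0.45 and 0.37. Slide and kind of control cannot be told apart here. Set against PBS samples, with which the inhaled samples share no slide, inhaled rCNT samples were higher for 23 genes and lower for 5, beside 27.5% and 27.7% of all features, with a median of 0.27. These values share their samples with the comparisons above. In that setting Mcm2 was 0.53 higher, Mcm3 0.27 and Fen1 0.30 higher, Rrm1 0.81 and Uhrf1 2.09 higher, and E2f2 was 0.24 higher instead of lower. Gins3 (-0.48), Gins4 (-0.29), Pole2 (-0.31) and Rfc3 (-0.33) were lower against PBS samples too.

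Genes next to these in the cell cycle were read from lists by function, beside 20.6% of all features that rose and 26.5% that fell after aspiration and 28.4% and 32.5% after inhalation. Of 23 measured genes of mitosis, 23 rose after aspiration, with a median of 2.23, and 20 after inhalation, with a median of 1.10 and 0 that fell. Mki67, the proliferation marker, rose by 2.52 ± 0.10 and 2.22 ± 0.10 after the 2 routes, Cdk1, the mitotic kinase, by 2.49 ± 0.10 and 1.55 ± 0.11, and Top2a, the topoisomerase that untangles chromosomes, by 2.32 ± 0.12 and 1.14 ± 0.13. The difference between routes was called for 19 of the 23, with a median of 0.94, but not for Mki67 (0.30 ± 0.14, limma adjusted p = 0.0837).

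Of 33 other replication factors, 21 rose and 1 fell after aspiration (median 0.25), and 11 (33.3%) rose and 9 (27.3%) fell after inhalation (median 0.07), shares near those of all features. Ticrr, which helps to load Cdc45, rose by 1.44 and 0.57, Chtf18, the clamp loader partner of Dscc1, by 1.31 and 0.64, and the helicase Recql4 by 0.95 and 0.91. Gmnn, the inhibitor of Cdt1, rose by 0.57 ± 0.07 after aspiration and changed by 0.14 ± 0.08 after inhalation (limma adjusted p = 0.136). Pold2 and Pold4, small subunits of polymerase delta, rose by 0.25 and 0.20 after aspiration and fell by 0.46 and 0.76 after inhalation, and Orc4 fell by 0.17 after aspiration.

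Of 15 other genes of nucleotide metabolism, 10 rose and 3 fell after aspiration, and 2 rose and 8 fell after inhalation. Ctps, which makes CTP, rose by 1.37 and 0.77. Gart and Mthfd1, of purine synthesis and folate metabolism, fell by 0.88 and 0.96 after inhalation, while after aspiration Gart rose by 0.18 and Mthfd1 fell by 0.24. The salvage kinase Dck rose by 0.77 after aspiration and changed by -0.20 ± 0.09 after inhalation (limma adjusted p = 0.0709). Rrm2b and Tk2, the forms of the reductase and kinase that quiescent cells and mitochondria use, fell by both routes, Rrm2b by 0.47 and 0.36 and Tk2 by 0.37 and 0.82.

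Of 21 G1 cyclins, Rb family genes and E2F partners, 10 (47.6%) rose and 3 (14.3%) fell after aspiration, and 4 (19.0%) rose and 5 (23.8%) fell after inhalation, both below the shares of all features. Ccna2, cyclin A2, rose by 2.44 and 1.54, and E2f7, the repressor most like E2f8, by 1.63 and 1.84 (difference -0.20 ± 0.12, limma adjusted p = 0.163). Myc rose by 0.76 after aspiration and fell by 0.52 after inhalation, a difference of 1.28 ± 0.17. Ccnd1, cyclin D1, changed by 0.06 ± 0.06 after aspiration (limma adjusted p = 0.469) and rose by 0.33 after inhalation. Of 7 inhibitors of cyclin-dependent kinases, 2 rose and 3 fell after aspiration, and 1 rose and 1 fell after inhalation. Cdkn1a, the inhibitor p21, rose by 1.23 ± 0.21 and 0.59 ± 0.23. It stood at 10.97 to 11.60 in aspirated rCNT samples against 9.75 to 10.34 in PBS samples. In inhaled rCNT samples it stood at 10.97 to 12.24 against 10.61 to 11.47 in untreated ones, overlapping ranges (limma adjusted p = 0.0345). All PBS samples lay below all untreated samples, and the aspirated rCNT samples overlapped the untreated ones. Cdkn1b and Cdkn1c fell by 0.50 and 0.65 after aspiration. Of 21 genes of recombination and the S-phase checkpoint, 15 rose and 1 fell after aspiration, and 12 rose and 1 fell after inhalation. Fanca, of the Fanconi anaemia pathway of crosslink repair, changed by 0.34 ± 0.15 after aspiration (limma adjusted p = 0.0775) and rose by 1.10 ± 0.16 after inhalation.

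Markers of cell types were read beside the shares of all features. After aspiration 20.6% of all features rose and 26.5% fell, and after inhalation 28.4% rose and 32.5% fell. The lists did not all go the same way, and several differed between the routes. After aspiration, 8 of 10 measured monocyte and macrophage markers rose and 2 fell, and their mean level relative to the average over samples was 0.75 to 0.86 in rCNT samples and -0.35 to -0.27 in PBS samples. In inhaled rCNT and untreated samples it was -0.36 to -0.19 and -0.33 to -0.24, overlapping ranges, where 4 (40.0%) rose and 3 (30.0%) fell. For these, Cd68 and Ly6c2 had no named probe. Airway epithelial markers (8 of 9 measured) stood at 1.06 to 1.48 against -0.85 to -0.45 after aspiration and at 0.79 to 0.97 against -1.29 to -1.16 after inhalation. Of the 8, 5 rose and 2 fell after aspiration and 6 rose after inhalation. The mucus genes Clca1 (5.43 and 6.18), Agr2 (4.05 and 3.87), Muc5ac (3.67 and 1.96) and Muc5b (1.59 and 2.66) had the largest changes after the 2 routes, while the club cell gene Scgb1a1 fell by 0.98 after aspiration and changed by 0.03 after inhalation. Eosinophil markers (5 of 6 measured, without Epx) stood at 1.21 to 1.63 against -0.24 to -0.11 after aspiration, where 4 of 5 rose. After inhalation their mean was -1.04 to -0.93 against -0.57 to -0.38, with changes of -1.71 and -0.69 for Siglecf and Ccr3, which fell, and of -0.13 to 0.02 for the other 3, which were not called. Siglecf is also 1 of the alveolar macrophage markers (11 of 12 measured). Of these 11, 3 rose and 4 fell after aspiration, and 4 rose and 4 fell after inhalation. Their mean after inhalation was -0.39 to -0.32 against -0.30 to -0.09. Which cells the Siglecf change came from was not tested. Neutrophil markers (8 of 10 measured) stood at 0.51 to 0.98 against -0.24 to -0.0070 after aspiration, where 5 rose and 1 fell, and at -0.67 to -0.35 against -0.48 to -0.0025 after inhalation, where 2 rose and 3 fell. Dendritic cell markers (6 of 7 measured) stood at 0.47 to 0.74 against -0.23 to -0.10 after aspiration, with 3 that rose, and alveolar type 1 markers (6 of 7 measured) at -0.52 to -0.35 against 0.20 to 0.25, with 5 that fell and 1 that rose.

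Lymphocyte markers were lower after inhalation, with T cell markers (8 of 9 measured) at -0.68 to -0.48 against -0.16 to 0.59 and B and plasma cell markers (9 of 9) at -0.84 to -0.72 against -0.27 to 0.75. Of these, 5 T cell genes fell and 1 rose, and 8 B and plasma cell genes fell, beside 32.5% of all features that fell and 28.4% that rose. All 6 NK cell markers fell after inhalation, with a mean of -0.96 to -0.58 against 0.10 to 1.04. All 9 endothelial markers fell by both routes, beside 26.5% of all features after aspiration and 32.5% after inhalation. All 8 fibroblast markers fell after inhalation too, whereas 3 rose and 4 fell after aspiration. Of 8 alveolar type 2 markers, 3 (37.5%) fell after aspiration and 4 (50.0%) after inhalation, and 0 rose by either route. Of 6 alveolar type 1 markers, 2 (33.3%) fell and 0 rose after inhalation. Dividing lymphocytes of thymus or germinal centre were checked through 6 measured genes, while the defining genes Rag1, Rag2 and Ptcra did not pass the filter. The 6 genes stood at -0.03 to 0.13 in aspirated rCNT samples against 0.02 to 0.14 in PBS samples, and at -0.20 to -0.13 in inhaled rCNT samples against -0.07 to 0.03 in untreated ones. Of the genes of neutrophil and erythroid precursors, 5 were measured, and Prtn3, Ctsg, Ms4a3, Klf1 and Rhag did not pass the filter. Those 5 stood at -0.48 to -0.33 in aspirated rCNT samples against -0.09 to 0.23 in PBS samples, and at -0.12 to 0.14 in inhaled rCNT samples against 0.17 to 0.47 in untreated ones. The part of these cell types in the changes of the replication genes was not tested.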

How the data were processed

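Median spot intensity and local background of the 15 samples, each 1 channel of a two-colour array, are deposited values extracted with Agilent Feature Extraction 11.0.1.1, per the file headers. Per the submitters' processing notes, limma was also used. The deposited series table was taken as log2, its scale and centring unstated by the authors, and served only as an alternative. Correlation of its columns with the own channel's log2 intensity was 0.998 to 1.00, and its medians were 6.58 to 6.59.

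Background correction used normexp with an offset of 50, followed by log2 and quantile normalisation of the 15 channels together. Control spots and outlier spots (106 to 154 per sample) were left out. Probes called well above background in 3 or more samples of any group were kept, which left 34271 of 55681. RefSeq accessions gave the symbol of 27656 probes (20972 genes) through a table of GRCm38.p6, and the brightest probe stood for a gene. Limma 3.58.1 in R 4.3.3 fitted 1 model with groups and dye, two-sided. Bounds for dim genes use, for each dim sample, the higher of its own signal and the lowest signal of probes well above background. The fit was tested on simulated data.

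The members, gene lists and tests were chosen with earlier results of these data known, so their direction is no independent evidence. All members may be named, and from each other list the 2 genes with the largest called change in each direction and route, beside Mki67, Top2a, Cdk1, Ccna2, Ccnd1, Cdkn1a, Gmnn, Rb1 and Myc. Replicate numbers did not pair samples: deviations of same-numbered samples correlated at -0.43 to 0.08, and at -0.14 to 0.29 after the dye effect, with 4 of 7 pairs below 0. High-dose aspiration samples are not analysed here. Some genes of the lists are not reported here.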

Additional observations from a re-analysis of the deposited data

Results flagged for a closer look

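In the groups of 4 samples, the level of a gene in 1 sample lay farther from the others than the critical value of Dixon's test allows in 11 of 123 gene and group pairs, where chance gives about 1 in 20. The samples and genes concerned are scattered. Among aspirated rCNT samples, Mcm4 was low in replicate 2 (12.33, the others 12.36 to 12.37) and Dscc1 low in replicate 1 (7.92, the others 8.01 to 8.02), both by small amounts. Among PBS samples, replicate 2 was low for Dscc1 (6.56, the others 6.78 to 6.81) and for Rrm1 (9.84, the others 10.15 to 10.19), and replicate 4 was high for Pcna (12.75, the others 12.47 to 12.50) and for Ccne1 (8.65, the others 8.54 to 8.55). Among untreated samples, replicate 2 was high for Mcm5 (9.64, the others 9.34 to 9.36), replicate 3 was low for Mcm7 (10.99, the others 11.21 to 11.24) and for E2f8 (6.56, the others 6.89 to 6.95), and replicate 4 was high for Gins3 (13.91, the others 13.67 to 13.71) and for Lig1 (11.12, the others 10.85 to 10.89). Exposed and control samples of the same gene and route did not overlap in any of these cases but Mcm5, where inhaled rCNT replicate 2 (9.18) lay below all untreated samples and the other inhaled samples above them.

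The change after aspiration and the change after inhalation differed, by limma's interaction term, for 37 of the 41 genes, and for 36 of 39 without Orc1 and Clspn. The difference on the log2 scale (change after aspiration minus change after inhalation) was above 1 for Gins2 1.64, Cdt1 1.42, Fen1 1.29, Mcm5 1.23, Pole2 1.22, Mcm2 1.20, Mcm3 1.16, Rfc3 1.14, Pole 1.11, Mcm6 1.09, Rrm2 1.04 and Rfc4 1.03. It lay between 0.5 and 1 for Chaf1b 0.99, Rfc5 0.92, Prim1 0.89, Rrm1 0.88, Pcna 0.87, Gins1 0.83, Dscc1 0.68, Gins3 0.65, Uhrf1 0.64, Gins4 0.61, Cdc6 0.60, Ccne1 0.59, Mcm4 0.57 and Tk1 0.52. It was smaller for Cdc45 0.49, Clspn 0.43, Lig1 0.39, Pola1 0.39, E2f8 0.39, Mcm10 0.39, Chaf1a 0.38, Pola2 0.35, Orc6 0.32, Tyms 0.30 and Mcm7 0.27. Without Clspn, which passed the filter only through the aspirated rCNT samples, the adjusted p-values in limma ran from 2.86e-08 to 0.0194. Dose, control and slide differ between the arms together with the route.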

How the results depend on the processing

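The counts and medians given here are for the 41 measured genes. After aspiration 39 rose (35 to 39 when 1 sample was left out, median change 1.12 to 1.18), and the single fall, that of Gins3, was 0 under normexp offset 16, median centring, cyclic loess, the deposited series table, no filter on dim probes, no dye term and the replicate block, and 0 to 1 when 1 sample was left out. The median change after aspiration was 1.13 and 1.28 with the processed signal. After inhalation 21 rose and 5 fell (19 to 22 and 5 to 6 when 1 sample was left out). With median centring 13 rose and 12 fell, the median change of 0.23 turned to -0.013, and Prim1 and Rfc5 turned to -0.037 and -0.013. That scaling takes off each array's own median, and the cause of the difference was not tested. The same scaling split all features, higher and lower, as 8855 and 3911 in place of 7182 and 7207 for the difference between routes, as 7548 and 5202 in place of 6647 and 8360 for PBS against untreated samples, and as 3499 and 13112 in place of 6949 and 6988 for inhaled rCNT against PBS samples. The inhalation median ranged from 0.18 to 0.37 when 1 sample was left out, with the highest value without inhaled replicate 2, and was 0.35 within slide 2. The difference between routes was called for 35 to 39 genes, PBS against untreated for 17 to 22 and inhaled rCNT against PBS for 26 to 30 when 1 sample was left out.

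Replicate numbers did not pair the samples. With the replicate block, 38 rose and 0 fell after aspiration, 19 rose and 6 fell after inhalation, 35 differed between routes, and 10 instead of 21 differed between the control groups. The array as a random block could not be fitted, because 1 array alone held 2 samples. Leaving out those 2 samples, an alternative chosen after seeing the data, gave 39 and 1 after aspiration, 21 and 5 after inhalation, and 32 differences between routes. Signal over background limits Orc1, Clspn, Brca1 and Ccne2.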
